A study of Mus musculus with 6 samples.

Results

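The 4 Hox gene clusters of NMuMG cells were examined by ATAC-seq, which marks open chromatin by the insertion of sequencing adapters by the Tn5 transposase. The members were the called accessible regions that overlapped 4 windows on the mouse build mm9. The HoxA window ran from 52090000 to 52230000 on chromosome 6, and the HoxB window from 96040000 to 96240000 on chromosome 11. The HoxC window ran from 102740000 to 102880000 on chromosome 15, and the HoxD window from 74490000 to 74610000 on chromosome 2. Together the windows spanned 600 kb. They held 7 of the 42310 regions of the DMSO list, 3 of the 25922 regions of the list at 6 h of BRM014 and 7 of the 38422 regions of the list at 30 h. NMuMG is an established wild-type epithelial line from normal mouse mammary gland, and all groups were grown in medium with serum and insulin. The extraction protocol in the labels also speaks of TGFβ, a treatment that none of the sample labels names. BRM014 inhibits the ATPase subunits of SWI/SNF, the chromatin remodelling complexes that use ATP to move nucleosomes. Each of the 3 groups, DMSO, BRM014 for 6 h and BRM014 for 30 h, had 2 biological replicates, and the authors made 1 list per group from both, so no replicate spread could be measured and no test between treatments was made. The DMSO time of 30 h is known from the name of its list alone, and the 6 h cells had no vehicle control of their own time.

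Hox genes encode homeodomain transcription factors that give cells their position along the body axis, and mammals carry them in 4 clusters on separate chromosomes. Within a cluster, genes of low number are active early and towards the head, and genes of high number late and towards the tail. In cells where a cluster is silent it is usually covered by Polycomb repressive complexes, which SWI/SNF complexes are known to oppose. In the RefSeq gene table of the build GRCm38, used here for names and order only, chromosome 6 carried 11 HoxA genes, chromosome 11 carried 10 HoxB genes, chromosome 15 carried 9 HoxC genes and chromosome 2 carried 9 HoxD genes, 39 in all. The 6 microRNA genes listed between them were Mir196b in HoxA, Mir196a-1 and Mir10a in HoxB, Mir196a-2 and Mir615 in HoxC, and Mir10b in HoxD. The stretch from the first to the last Hox gene was 173.9 kb in HoxB, 115.7 kb in HoxC and 96.9 kb in HoxD, each shorter than its window. In HoxA, Hoxa13 stood at the end of higher position, next to Hottip. In order of rising position the other clusters ran from Hoxb13 to Hoxb1, from Hoxc13 to Hoxc4, and from Hoxd13 to Hoxd1 beside Mtx2. Coordinates were not moved between builds, so no called region was assigned to a gene.

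Promoters of many Hox genes are rich in the dinucleotide CG. Promoter sequences were listed for 22 of the 39 genes, and the 250 bases before the start of transcription held a median of 13.0 CG in these genes, from 3 to 35, against a median of 6 over all 27025 genes in the table. At least 10 CG were found in 15 of the 22, or 68.2%, and in 40.2% of all genes. Where a gene had several starts, that with the most CG was taken. The promoter of Hoxc4 is shown because it was the HoxC gene with a listed sequence, and the HoxC window held no called region in any list. It lies on the plus strand, is taken from RefSeq on GRCm38.p6, and its 8 CG are in capitals. Whether this start lies inside the mm9 window was not looked up.
Hoxc4: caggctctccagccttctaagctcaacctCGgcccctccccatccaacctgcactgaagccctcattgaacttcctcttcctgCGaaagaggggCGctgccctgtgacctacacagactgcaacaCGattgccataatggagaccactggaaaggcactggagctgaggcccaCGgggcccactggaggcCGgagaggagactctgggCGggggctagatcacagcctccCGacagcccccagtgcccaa

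Called regions in the windows were few and unevenly spread. In DMSO cells HoxA held 5 regions with 11 summits, HoxB 1 region, HoxD 1 region and HoxC none, each of the single regions with 1 summit. Accessible sequence covered 2.81% of the HoxA window, 0.123% of HoxB and 0.578% of HoxD, against 1.18% over the whole list from the first to the last region of each chromosome. At 6 h of BRM014 HoxA was the only window with regions, 3 in number, covering 1.81% of it. At 30 h HoxA again held 5 regions and covered 3.0%, HoxB held 1 and HoxD 1, and HoxC again none. Over the 4 windows there were 1.17 DMSO regions per 100 kb, 0.50 at 6 h and 1.17 at 30 h, against 1.65, 1.01 and 1.50 over the whole lists. The flanks of the windows, 1 stretch of equal length on each side, held 23 DMSO regions, 21 at 6 h and 22 at 30 h, or 1.92, 1.75 and 1.83 per 100 kb. Of the 23, 8 lay left of HoxB and 8 right of HoxC. The HoxA flanks held 1 DMSO region on the left and 0 on the right, against 5 in the window. Windows with at most 1 region were common. Cut into stretches of 140 kb, 43.0% of the genome held no DMSO region, as HoxC did. Of stretches of 200 kb, 48.9% held at most 1 region, as HoxB did, and of stretches of 120 kb 59.7%, as HoxD did. HoxA, with 5 regions, held more than most stretches of 140 kb, whose median was 1 and mean 2.31. Of these stretches 85.1% held 5 or fewer. HoxA had 3.57 DMSO regions per 100 kb, against 1.65 over the whole list.

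**Figure D1:**
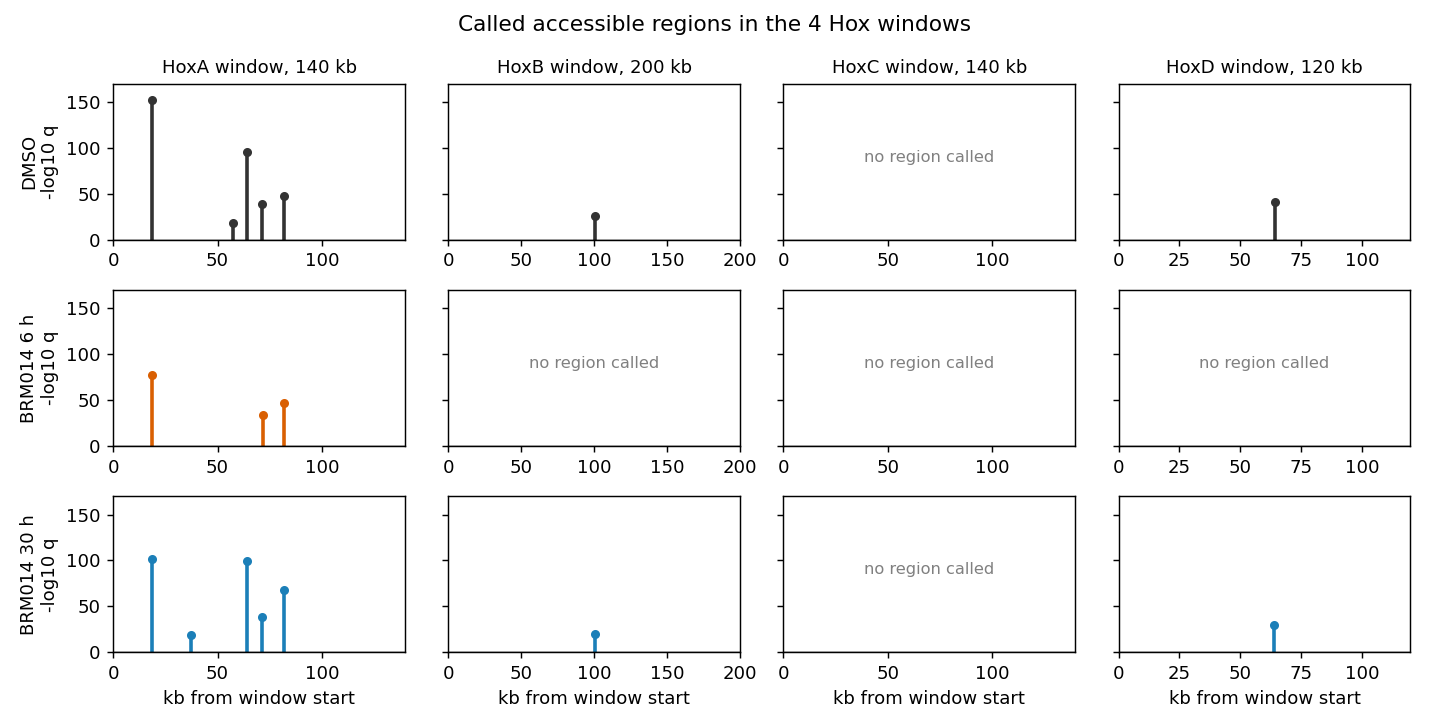
Called regions in the 4 Hox windows, with distance from the start of the window in kb on the x axis and the highest deposited -log10 q of the region on the y axis. Each stem is 1 region, rows are the 3 lists and columns the windows: HoxA holds 5, 3 and 5 regions in the DMSO, 6 h and 30 h lists, and HoxC none.

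All of the HoxA regions lay in the part of the window towards lower positions and its middle. The first DMSO region began 18.1 kb into the window, the last ended 64.2 kb further on, and the remaining 57.7 kb, 41.2% of the window, held no region. In the GRCm38 order that empty end is the side of Hoxa13 and the other genes of high number. It was empty in all lists, with 57.9 kb at 6 h and 57.8 kb at 30 h. The gaps between neighbouring DMSO regions were 38.3, 6.1, 6.5 and 9.4 kb, so 4 of the 5 regions stood in 1 group and the first stood apart. In HoxB the single DMSO region began 100.2 kb into the window of 200 kb, and in HoxD 63.8 kb into the window of 120 kb, so both stood near the middle of their window. The empty stretch around HoxC reached from the region that ended at 102670533 to the one that began at 102982792, or 312.3 kb in DMSO cells, 288.4 kb at 6 h and 288.1 kb at 30 h. At 6 h the HoxB window lay in an empty stretch of 601.2 kb and the HoxD window in one of 246.1 kb.

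Most of the Hox regions had a lower -log10 q than the median DMSO region. This deposited measure of significance, which grows with depth, had a median of 40.7 over the 7 DMSO regions, from 17.8 to 152, and of 91.7 over all DMSO regions. The fold enrichment, the height of the summit over local background, differed less, with a median of 11.5 in the windows and 13.0 in the whole list. The summit pileup, the number of overlapping reads recovered from the fold enrichment and the deposited -log10 p, had a median of 53.0 against 129. Width did not share this: the median was 694 bp in the windows and 677 bp in all. Of the 7 members, 5 fell in the 3 weakest deciles of -log10 q. HoxA region 3, numbered along the chromosome, lay at the 51.4th percentile and HoxA region 1 at the 67.2nd, both above the median of the list.

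At 6 h, 4 of the 7 DMSO regions were no longer called, 57.1% with a 95% Wilson interval of 25 to 84.2%, where 43.6% of all DMSO regions were missing. At 30 h 1 of 7 was missing, 14.3% (2.57 to 51.3%), against 26.1% of all. The same region was missing at both times, 1 of 7 against 23.7% of all. A further 3 were missing at 6 h only, 42.9% (15.8 to 75%) against 19.9%, and 3 were called at both times, 42.9% (15.8 to 75%) against 54.1%. Each interval, which covers counting error only, contains the share of the whole list, so the members' shares could not be set apart from it at this number. Weak regions are missing more often, and with the shares of all regions weighted to the members' deciles of -log10 q, 66.4% would be missing at 6 h and 43.6% at 30 h. Weighted to deciles of fold enrichment these were 49.5% and 29.7%. A missing region was not called, which does not show that it was closed. The depth of the 6 h list was 63.0% and that of the 30 h list 80.7% of the DMSO list, as judged from the lowest background in each. For the missing regions depth and treatment cannot be told apart. Differences between the 2 replicates of a group, which 1 list per group does not show, cannot be told apart from these either.

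**Figure D2:**
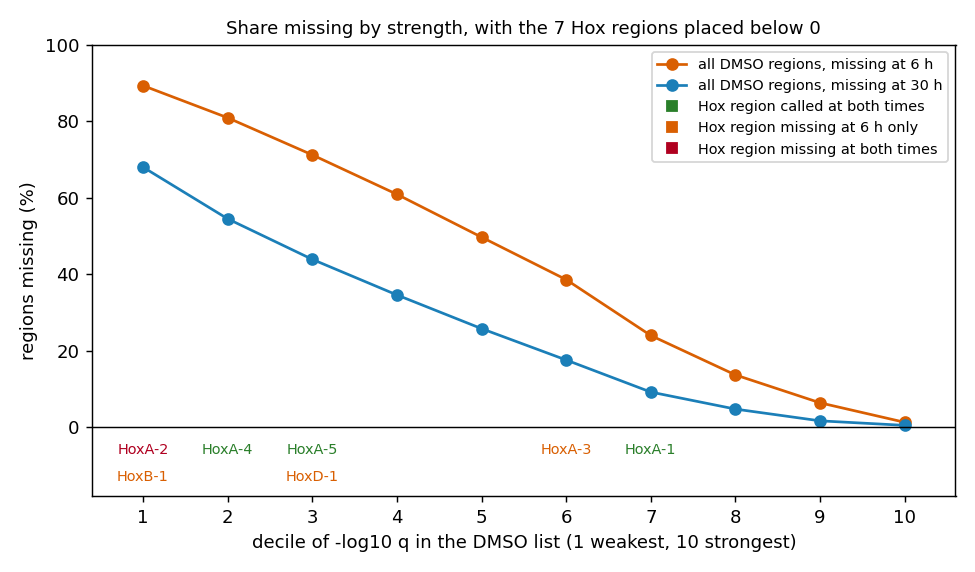
Percent of all DMSO regions missing at 6 h and at 30 h (y axis) by decile of -log10 q in the DMSO list (x axis), with 4231 regions per decile. Names below 0 place the 7 Hox regions in their decile, coloured by whether they were called later: 5 of 7 lie in deciles 1 to 3, where 71.2 to 89.3% of all regions were missing at 6 h.

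HoxA region 3 had the highest -log10 q of the 4 Hox regions missing at 6 h. It lay from 52153653 to 52154774 and was, at 1122 bp, the widest of the 7, wider than 90.4% of DMSO regions. Its fold enrichment was 15.8, its -log10 q 95.3 and its summit pileup 112 in DMSO cells. No region overlapped it at 6 h. At 30 h it had a fold enrichment of 16.1, a -log10 q of 99.2 and a pileup of 116 over 1133 bp, with edges within 6 bp of those in DMSO cells. Scaled by the lowest background of each list, the DMSO pileup would be 70.6 at 6 h, and 41.0% of the regions called at 6 h had a lower pileup than that. Of all DMSO regions in the same bin of expected pileup, 52.0% were missing at 6 h and 30.4% at 30 h. The pileup found at 30 h was 1.28 times that expected, where the quartiles of kept regions in the bin were 0.758 and 1.28. Inside the region the main summit stood near its right edge, with a pileup of 112, and 2 side summits at 622 and 268 bp to its left had pileups of 34 and 32. At 30 h the main summit was 2 bp away, and 2 side summits at 625 and 390 bp to the left of the main DMSO summit had pileups of 36 and 22. The second of these was not within 100 bp of a DMSO summit.

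The other DMSO regions missing at 6 h were weaker than HoxA region 3. HoxB region 1, from 96140156 to 96140401, was 246 bp wide, with a pileup of 39, a -log10 q of 26.0 and a fold enrichment of 9.16. Its expected pileup at 6 h was 24.6, and 0.583% of the 6 h regions had a lower one. At 30 h it was called over 251 bp with a fold enrichment of 8.61 and a pileup of 31, 0.985 times that expected, with its summit at the same base. Kept regions in its bin of expected pileup had a median of 1.51 with quartiles of 1.27 and 1.91, so its value lay below the lower quartile. HoxD region 1, from 74553825 to 74554518, showed a pileup of 52, a -log10 q of 40.7 and a fold enrichment of 12.1. With an expected pileup of 32.8 it would rank above 5.96% of the 6 h regions, and 78.2% of DMSO regions in its bin were missing at 6 h. At 30 h it had a pileup of 39, 0.929 times that expected, below the lower quartile of 1.04 of kept regions in its bin, whose median was 1.29. It had narrowed from 694 to 487 bp, mostly by 193 bp at its right edge. Its deposited score there was 540, the lowest in the 30 h list. HoxA region 2, from 52147354 to 52147572, was missing at both times. It was 219 bp wide, with a pileup of 31, a -log10 q of 17.8 and a fold enrichment of 7.33, and 1.16% of DMSO regions had a -log10 q as low. Its expected pileups of 19.5 at 6 h and 25 at 30 h lay above those of 0.235% and 0.331% of the regions of these lists. HoxA region 3 thus had the highest expected pileup of the members missing at 6 h. HoxA region 4, in the same bin as HoxD region 1 with an expected pileup of 33.4, was called at 6 h.

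**Figure D3:**
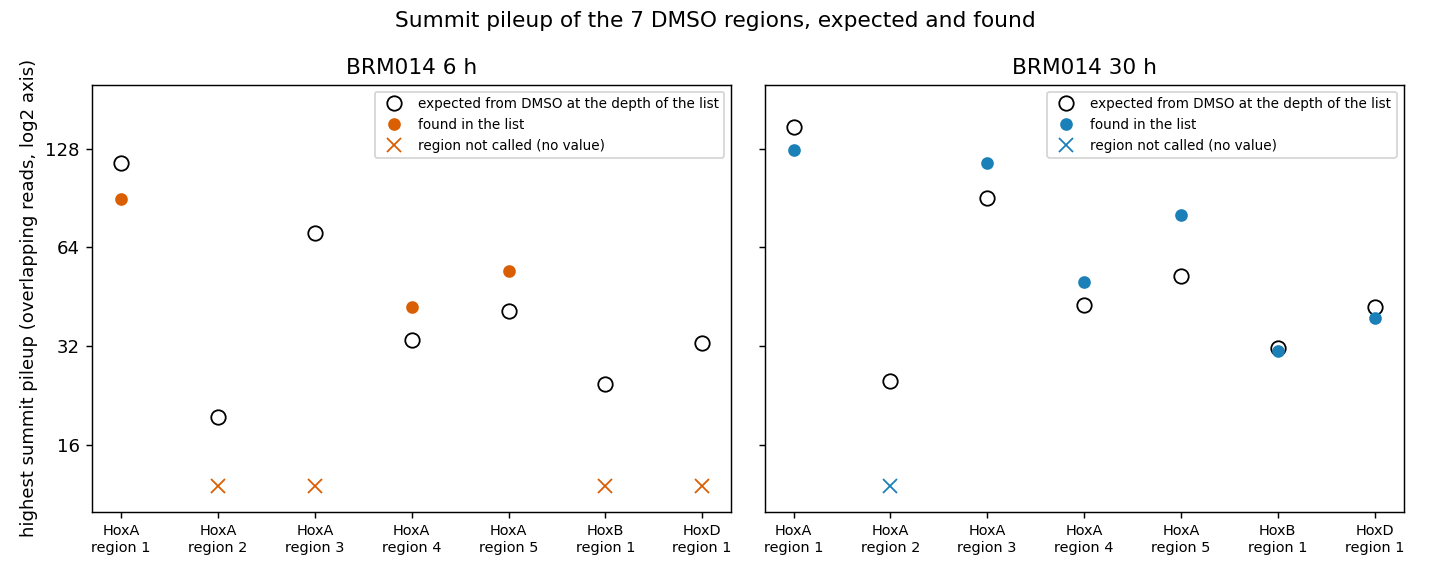
Highest summit pileup (y axis, log2 scale) of each of the 7 DMSO regions (x axis), with the value expected from DMSO cells at the depth of the treated list as open circles and the value found as filled circles, at 6 h on the left and 30 h on the right. Crosses mark regions that were not called and have no value: 4 at 6 h, of which HoxA region 3 had the highest expected pileup, 70.6, and 1 at 30 h.

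HoxA regions 1, 4 and 5 were called in every list. HoxA region 1, from 52108064 to 52109048, had the highest -log10 q of the members in each list, 152 in DMSO cells, 77.5 at 6 h and 102 at 30 h. Its fold enrichment was 15.8, 15.8 and 14.5 and its width 985, 976 and 976 bp. Its pileup was 0.776 times that expected at 6 h and 0.855 times at 30 h, where kept regions in its bin had medians of 0.777 and 0.927. HoxA region 4, from 52161240 to 52161901, stood at a fold enrichment of 11.2 in DMSO cells, 12.1 at 6 h and 11.5 at 30 h. Its summit pileups were 53, 42 and 50, or 1.26 times the expected value at 6 h and 1.17 times at 30 h. Both lay between the quartiles of kept regions in its bin, 0.981 and 1.40 at 6 h and 1.04 and 1.60 at 30 h, and the second was below their median of 1.29. HoxA region 5, from 52171306 to 52172251, stood at a fold enrichment of 11.5, then 14.6 and 14.8, and pileups of 65, 54 and 80. These were 1.32 and 1.52 times those expected, so it stood above its scaled DMSO value at both times, while its width went from 946 bp to 688 bp and 834 bp. Kept regions of the whole list with similar expected pileups had medians of 1.07 at 6 h and 1.22 at 30 h. Their quartiles were 0.874 and 1.30 at 6 h and 0.948 and 1.50 at 30 h, so region 5 lay just above the upper quartile at both times. A region has a value here only when it was called, and these medians leave out the missing regions.

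HoxA region 1 has 2 summits of nearly equal height in DMSO cells, which allowed a comparison within each list that does not depend on its depth. The left summit had a pileup of 184 and the right one, 478 bp away, 169, a ratio of right to left of 0.918. At 6 h the pileups were 90 and 51, a ratio of 0.567, and at 30 h 127 and 112, a ratio of 0.882. Against the pileups expected from DMSO cells the left summit stood at 0.776 and the right at 0.479 at 6 h, and at 0.855 and 0.821 at 30 h. The right summit was therefore the lower of both relative to DMSO at 6 h, and the summits were again of similar height at 30 h. For comparison, 2786 DMSO regions with 2 summits overlapped exactly 1 region in each treated list. That region also had exactly 2 summits, both within 100 bp of those in DMSO cells, and regions that gained or lost a summit were left out. Among the 2786, the ratio of the weaker to the stronger DMSO summit at 6 h had a median of 0.978 times that in DMSO cells. The quartiles were 0.770 and 1.24. It was 0.617 times in HoxA region 1, and as low or lower in 9.91% of such regions. At 30 h the values were 0.960 in HoxA region 1 and 0.999 in the median. This ratio was chosen after the pileups were seen. The 2786 regions were not matched to HoxA region 1 in their DMSO ratio of weaker to stronger summit. That ratio had a median of 0.433 and quartiles of 0.269 and 0.684, against 0.918 in HoxA region 1.

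The weaker summits of the other kept regions varied between lists. Region 4 had 1 summit in DMSO cells and 3 in each treated list, the additional ones with pileups of 10 and 10 at 6 h and of 13 and 19 at 30 h. The outermost stood 440 bp to the left of the main DMSO summit at 6 h and 439 bp at 30 h. At 6 h the region also reached 210 bp further to the right. Region 5 had 4 summits in DMSO cells, with pileups of 13, 18, 65 and 22, and 2 in each treated list. The summit of pileup 22, at 264 bp to the right of the main one, and the outermost on the left were not called after treatment. The depth was 63.0% of that of the DMSO list at 6 h and 80.7% at 30 h. For side summits of such low pileup, depth and treatment cannot be told apart. The main summits of regions 4 and 5 moved by 4 to 11 bp.

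**Figure D4:**
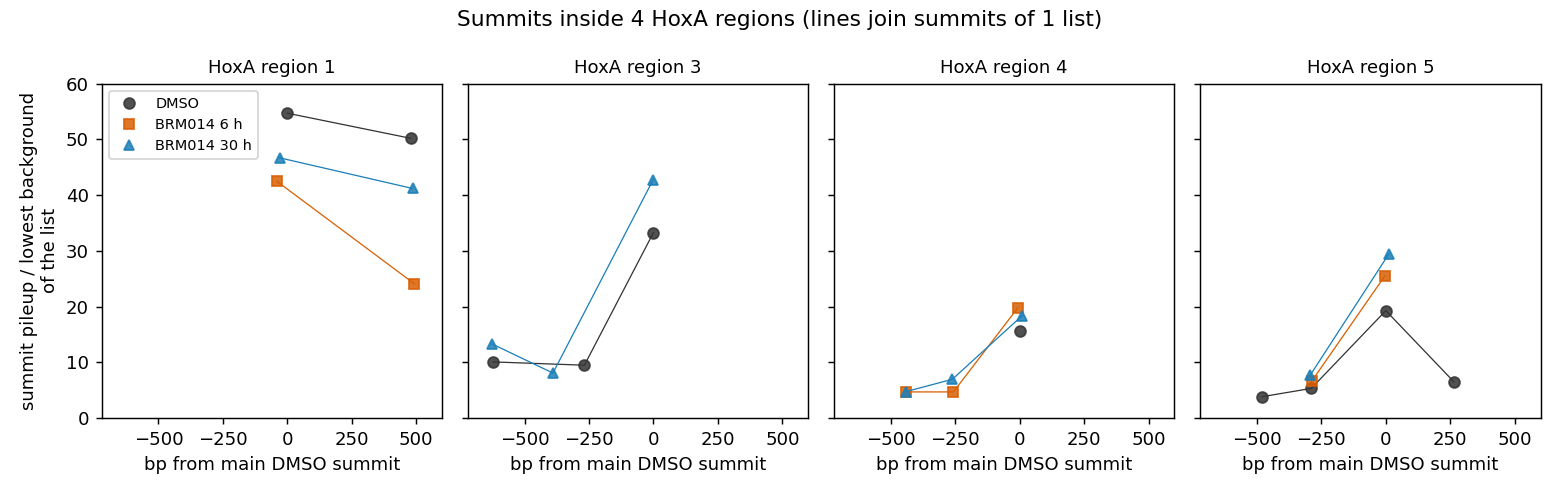
Summits inside HoxA regions 1, 3, 4 and 5, with distance from the main DMSO summit in bp on the x axis and the summit pileup divided by the lowest background of its list on the y axis. Points are summits, coloured and shaped by list, and lines join summits of 1 list: in region 1 the right summit stands at 50.2 in DMSO cells, 24.1 at 6 h and 41.2 at 30 h, and region 3 has no points at 6 h.

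Regions called only after treatment made up a share of the members that could not be told from that of the whole lists. At 6 h none of the 3 regions lacked a DMSO region, a share of 0% with an interval up to 56.1%, where 7.42% of all 6 h regions lacked one. At 30 h 1 of 7 did, 14.3% (2.57 to 51.3%), where 17.9% of all 30 h regions did. It lay in HoxA from 52126968 to 52127554, 17.9 kb from the nearest DMSO region, in the gap between regions 1 and 2. It had 2 summits 172 bp apart with pileups of 33 and 34, a -log10 q of 18.4 and a fold enrichment of 7.06. This was a weak region, and 2.37% of the 30 h list had a -log10 q as low. Its pileup corresponds to 42.1 at the depth of the DMSO list, where no region was called.

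The nearest DMSO regions outside the windows lay above the members' median -log10 q of 40.7 on the left of every window, but on the right only by HoxD. On the left they had -log10 q values of 252 by HoxA, 318 by HoxB, 104 by HoxC and 357 by HoxD, and all 4 were called at both times. On the right they were 32.6 by HoxA, 38.3 by HoxB, 21.8 by HoxC and 154 by HoxD. Of these, that by HoxD was called at both times, that by HoxB was missing at 6 h only, and those by HoxA and HoxC were missing at both times. They lay between 34.9 kb and 193.9 kb from the window.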

How the data were processed

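Peaks were called with MACS2 2.1.2 on mm9, per the submitters' processing notes, and each list was made from both replicates of its group, per the labels. The aligner, read filters, transposase shift and caller options are not given in the sources used here. For every entry the authors deposited a score (540 to 1000), a fold enrichment (a ratio over local background), a -log10 p, a -log10 q and a summit offset, all used as the authors deposited them. Entries with overlapping intervals were merged into regions holding their highest values. A region was shared when it overlapped 1 bp of a region in the other list. Pileup and background were solved from the deposited -log10 p and fold enrichment, on the assumption that MACS2 adds 1 to both and uses a Poisson tail, and matched within 0.001 for 100% of entries. The lowest background, 3.37 in DMSO, 2.12 at 6 h and 2.72 at 30 h, was taken as relative depth, since read totals were not analysed here. Expected pileups were compared in 4 bins per doubling. The solver and the overlap step were tested on simulated data. Intervals are 95% Wilson intervals. The windows, members and comparisons were chosen with earlier results of these data known. The text names every member. The fixed rule for naming regions takes the strongest, widest, missing and new regions of each window. Alternatives were other overlap rules, score, -log10 q, list length, merging, window limits, strength measure and scaling. Python 3.11.15, pandas 2.3.3 and scipy 1.17.1 were used.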

Additional observations from a re-analysis of the deposited data

How the results depend on the processing

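The shares of members missing or new kept within their intervals when 50% of a region had to be covered, under the summit rule, with regions within 500 bp shared, under the -log10 q minimum of 5, every entry counted, and windows extended by 50 kb or trimmed by 20 kb. The first 4 of these left every count as it was. At a score of 1000, 2 DMSO and 3 regions at 30 h were left, and 0% were missing at 30 h, 0% at both times and 0% new at 30 h. With the 25922 regions of highest fold enrichment in every list, 4 DMSO members were left, and 0% were missing at 30 h and 0% at both times. Of the 3 regions at 6 h 1, or 33.3%, then counted as new. It was that of HoxA region 4, whose DMSO region fell below the cut. With windows extended by 50 kb 1 of 5 regions at 6 h was new, 20%. The equal length removes members of low fold enrichment by construction, HoxA region 2 among them. The score of 1000 also removed HoxA region 2, but the score did not follow -log10 q. In the DMSO list HoxB region 1 had a score of 777 at a -log10 q of 26.0, and HoxD region 1 one of 712 at 40.7. What the score measures was not examined here. Scaling by the median ratio of regions called at both times moved the median of found over expected pileup at 6 h from 1.26 to 1.47, and HoxA region 1 from 0.776 to 0.907. At 30 h it stayed at 1.08. No paired analysis was possible because the replicates of a group were pooled into 1 list before deposit, and none could be left out in turn. HoxA region 2 and HoxB region 1 had the lowest expected pileups at 6 h. In the bins of HoxA region 3 and HoxD region 1, 52.0% and 78.2% of all DMSO regions were missing at 6 h. For every member missing at 6 h, depth and treatment cannot be told apart.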
